A study of Mus musculus with 11 samples.

Results

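IFN-gamma given to adult mouse microglia that had first been exposed to the TLR2 agonist Pam3CSK4 was examined by comparing the Pam3CSK4+IFN-gamma group (3 libraries, the combined group below) with the Pam3CSK4 group (2 libraries). These are 5 of the 11 libraries of the series; the other 6, of IFN-gamma alone (n = 3) and Control (n = 3), gave the response to IFN-gamma without Pam3CSK4. All 4 groups were cultured microglia, the resident macrophages of the brain, from the cerebrum of C57BL/6 mice aged 6-8 weeks, and all were grown for 10-14 days in medium with serum, 5 ng/ml of TGF-β1 and 10 ng/ml of M-CSF. Control cells had no further agent, Pam3CSK4 cells had 100 ng/ml of this synthetic lipopeptide for 24 h, IFN-gamma cells had 20 ng/ml of the cytokine for 24 h, and combined cells had Pam3CSK4 and then IFN-gamma, each at that dose and for that time. The treatment labels of combined replicates 2 and 3 spell the agonist Pam3CSK5 and Pam3CSK6, and these libraries were grouped by their titles. The labels state neither whether the agonist was washed out, nor when Control and Pam3CSK4 cells were harvested. They also do not say whether replicates came from separate mice or cultures, so p-values measure only the spread between these samples. Combined cells may have been harvested later after the agonist than Pam3CSK4 cells. An effect of that time cannot be told apart from a response to IFN-gamma in this comparison.

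Library totals were 18296151 and 15536852 counts in the Pam3CSK4 group and 20176823, 20321017 and 19529707 in the combined group, within 15033702 to 20321017 over the series. Of 10 microglial markers, 9 stood at 1 FPKM (a level scaled to gene length and library total) or more in each of the 5 libraries. Combined replicate 3 differed from the other 4 by transcripts of mural cells and fibroblasts: the 12 markers of that list summed to 55.8 FPKM there, against 1.26 and 2.33 in combined replicates 1 and 2 and 2.31 and 3.90 in the Pam3CSK4 libraries. Of those 12 markers, 1 was at 0 in combined replicate 3, between 1 and 4 were at 0 in each of the other 4 libraries, and 8 were tested, with none called. Neuronal markers summed to 3.75 FPKM in combined replicate 3 and to at most 0.562 in the other 4. The part of such transcripts in the results was not tested. Control replicate 3 and IFN-gamma replicate 1 carried more of the same transcripts, with sums of 2262 and 122 FPKM. Results are therefore also given without combined replicate 3, and for some genes from a fit of the 5 compared libraries alone. These include genes in which Control replicate 3 was not the outlying Control library, such as Aoah and P2ry12. The fit of the 5 libraries called more genes, 1345 higher and 969 lower, against 663 and 332 with all libraries. A gene called in that fit alone is therefore not counted as called here.

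IFN-gamma binds a receptor made of IFNGR1 and IFNGR2, whose JAK kinases activate STAT transcription factors. These bind GAS elements in promoters, and the transcription factor IRF1 that they induce carries the signal on to a later set of genes, many of them with ISRE elements. In macrophages and microglia this leads to antigen presentation, GTPases that act on intracellular pathogens, and chemokines that attract T cells, while TLR2 signals through MyD88 and NF-kB to inflammatory cytokines.

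Of 10938 tested genes, 663 (6.06%) were higher and 332 (3.04%) lower in the combined group than in the Pam3CSK4 group (edgeR quasi-likelihood test, Benjamini-Hochberg adjusted p under 0.05). At least 2-fold, 328 genes (3%) rose and 104 (0.951%) fell. The counts rested on both Pam3CSK4 libraries, with 308 genes higher and 103 lower without Pam3CSK4 replicate 1, and 302 higher and 103 lower without replicate 2. They were 452 and 161 without combined replicate 1, 444 and 148 without replicate 2, and 507 and 186 without replicate 3, against 1185 and 820 without Control replicate 3. The sign was kept in all 995 called genes (9.1%) in each of these 6 fits. In every called gene the libraries of both groups already lay apart in FPKM. Leaving 1 out could thus hardly turn the sign, which is no test of these calls. Of all tested genes, 18% lay higher and 39.2% lower in FPKM without overlap. With IFN-gamma alone, 2189 genes (20%) were higher and 2361 (21.6%) lower than in Control. The interaction term, the response after Pam3CSK4 minus the response without it, was positive in 876 genes (8.01%) and negative in 876 (8.01%). At least 2-fold, these were 451 (4.12%) and 335 (3.06%). The counts at any size ran from 307 and 357 without Pam3CSK4 replicate 2 to 1656 and 1576 without Control replicate 3. The median change over all tested genes was -0.0006 on the log2 scale. The deposited FPKM values are scaled by library total and lie lower by a median of 0.11 log2 units in the combined group over the 9086 genes above 1 FPKM in all 5 libraries, where the fitted median is -0.0045 (fitted changes use TMM-scaled counts).

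The genes that IFN-gamma alone raised at least 2-fold over Control numbered 731 (6.68% of those tested). The change behind that choice compared no library of the Pam3CSK4 or combined groups. Its p-values took filter, scaling and spread from all 11 libraries, so the choice was not fully independent of the later calls. The classes below were set by the comparison itself, so their levels are a description. Of these 731 genes, 357 (48.8%) also rose after Pam3CSK4, 254 of them at least 2-fold, and 3 fell. A further 176 (24.1%) were not called and had a 95% interval wholly inside 2-fold in either direction, and 195 (26.7%) were not called with an interval that reached past 2-fold, so whether these responded was not determined. Over all tested genes, 71.6% were not called with an interval inside 2-fold. In the 357 genes that rose again, the median of the mean levels was 3.80 FPKM in Control, 5.53 in Pam3CSK4, 22.4 in IFN-gamma and 16.3 in the combined group. In the 176 genes with a response under 2-fold it was 7.71 in Control and then 16.1, 17.7 and 17.8 FPKM in the 3 treated groups, so that the level of the Pam3CSK4 group lay near that of IFN-gamma alone. The median log2 change of the 357 genes was 2.14 without and 1.43 after Pam3CSK4, and that of the 176 was 1.28 and 0.21. Choosing genes by a large change with IFN-gamma alone favours a smaller change in the other comparison, so these medians are no test.

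Genes that IFN-gamma alone lowered at least 2-fold numbered 698 (6.38% of those tested), and fewer of them moved again. After Pam3CSK4, 97 (13.9%) fell, 54 of them at least 2-fold, 9 rose, 299 (42.8%) were not called with an interval inside 2-fold, and 293 (42.0%) were undetermined. The 299 genes stood at a median of 5.87 FPKM in Control, 2.79 in Pam3CSK4, 2.01 in IFN-gamma and 2.25 in the combined group. The 97 that fell again stood at 5.87, 5.18, 1.76 and 2.14 FPKM in the same order. Without combined replicate 3, 307 of the 357, 156 of the 176, 55 of the 97 and 250 of the 299 genes stayed in their class. The sign was kept in all 357 and all 97, which had no overlap between the groups before that library was left out. The 97 fell to 36 without Pam3CSK4 replicate 1, 39 without Pam3CSK4 replicate 2, 54 without combined replicate 1, 52 without combined replicate 2 and 59 without combined replicate 3, and stood at 198 without Control replicate 3. The 357 stood at 213 without Pam3CSK4 replicate 1 and 222 without replicate 2.

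**Figure D1:**
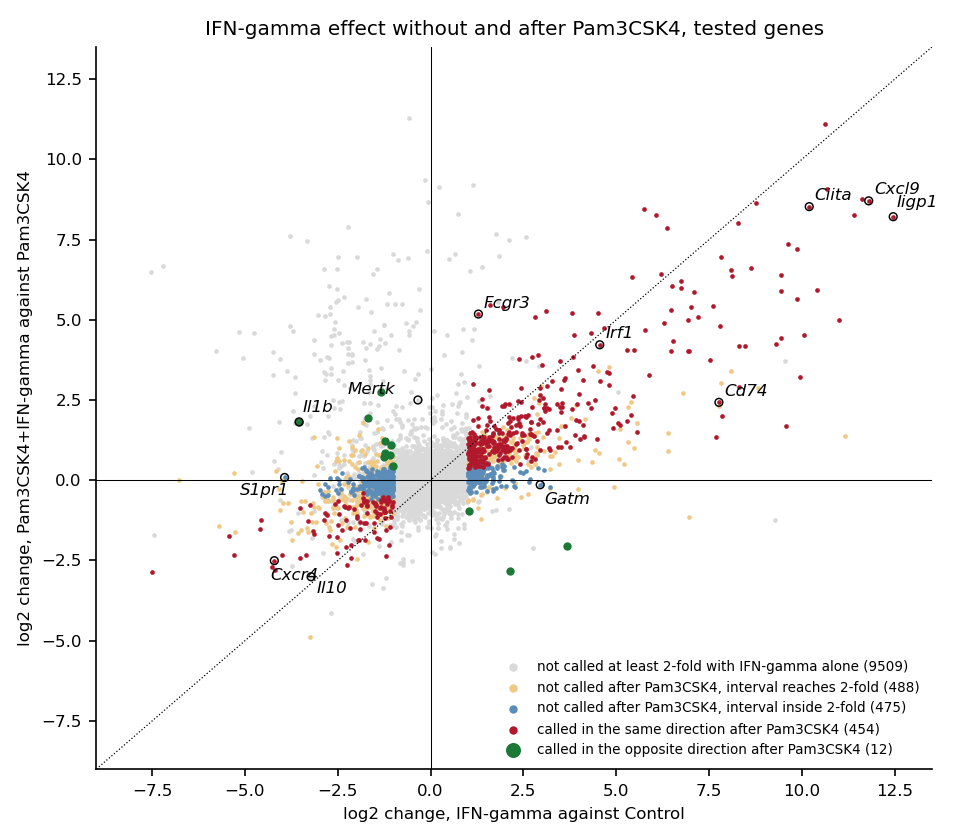
Each point is a tested gene, with the log2 change of IFN-gamma against Control on the x axis and of Pam3CSK4+IFN-gamma against Pam3CSK4 on the y axis; the dotted line marks equal change. The 357 and 97 genes called in the same direction (red) lie mostly between the dotted line and zero, and most of the grey points high above zero are not called.

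**Figure D2:**
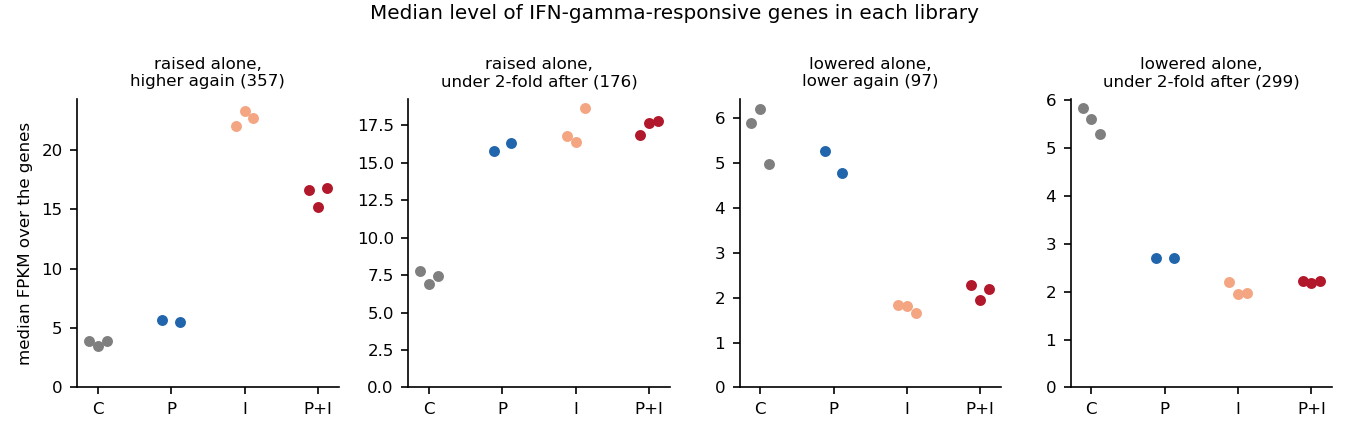
Median FPKM over the genes of each class (y axis) in each library, for Control (C, n = 3), Pam3CSK4 (P, n = 2), IFN-gamma (I, n = 3) and Pam3CSK4+IFN-gamma (P+I, n = 3); the number of genes is in brackets. In the 176 genes under 2-fold, the Pam3CSK4 libraries stand at 15.8 and 16.3 FPKM, beside 16.8 to 17.8 in the combined libraries.

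The receptor and kinases of the IFN-gamma pathway did not change past the threshold. Ifngr1, the ligand-binding chain, stood at 16.7 and 16.3 FPKM in the Pam3CSK4 and 12.5, 13.4 and 12.2 FPKM in the combined libraries, a log2 change of -0.27 ± 0.17 (edgeR adjusted p = 0.410; 0.0454 in the fit of the 5 libraries alone). Control cells had 52.7, 53.9 and 41.0 FPKM, so both groups lay below Control. Ifngr2, the second chain, changed by -0.17 ± 0.12 (edgeR adjusted p = 0.462), Jak1 by 0.23 ± 0.09 (0.164) and Jak2 by -0.05 ± 0.11 (0.844). Jak2 stood at 13.4, 13.3 and 14.7 FPKM in Control and at 92.4 and 78.2 FPKM in the Pam3CSK4 libraries, higher than in the IFN-gamma libraries (21.4, 21.8 and 18.0 FPKM).

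Of the 21 tested genes on the list of the IFN-gamma receptor pathway and its brakes, 9 rose and none fell, with a median log2 change of 0.66. Of all tested genes, 6.06% rose and 3.04% fell. IFN-gamma alone raised 13 of the list and lowered 2, beside 20% higher and 21.6% lower of all tested genes. With Pam3CSK4 replicate 1, Pam3CSK4 replicate 2 or combined replicate 3 left out, 3, 4 and 7 were higher. Irf1, the transcription factor that relays the signal (ENSMUSG00000018899, chromosome 11, 53770014 to 53778374, mm10), stood at 5.61 and 4.60 FPKM in the Pam3CSK4 and 82.5, 94.8 and 87.4 FPKM in the combined libraries. Every combined library was over 10 times the Pam3CSK4 ones, and the log2 change was 4.22 ± 0.19 (edgeR adjusted p = 2.32e-06). IFN-gamma alone changed Irf1 by 4.55 ± 0.16, and the difference between both responses was -0.33 ± 0.21 (adjusted p = 0.314, interaction term of the same fit). Socs1, the feedback inhibitor of JAK kinases, went from 14.2 and 18.8 FPKM to 276, 270.2 and 293 FPKM (4.19 ± 0.18, edgeR adjusted p = 1.90e-06). Its Control level was 1.25, 1.04 and 1.69 FPKM, so that the rise after Pam3CSK4 started from a higher level and was smaller than the 8.47 ± 0.19 of IFN-gamma alone (difference -4.28 ± 0.22, adjusted p = 1.32e-05).

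Irf8, a myeloid transcription factor that partners IRF1, rose from 34.1 and 35.1 FPKM to 90.9, 87.3 and 91.5 FPKM (1.49 ± 0.21, edgeR adjusted p = 0.00220). Other genes of this list that rose were Stat3 (1.08 ± 0.23), Irf2 (0.88 ± 0.16), Stat2 (0.87 ± 0.17) and the phosphatase genes Ptpn2 (0.73 ± 0.16) and Ptpn1 (0.66 ± 0.11), which damp JAK and STAT signals. None of these 5 was called without Pam3CSK4 replicate 1, and of them only Ptpn1 was called without Pam3CSK4 replicate 2; Stat3 was also lost without combined replicates 1 or 3, and Ptpn2 without combined replicates 1 or 2.

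Promoter sequences of 5 of these IFN-gamma target genes are shown because they hold the elements that STAT and IRF factors are known to bind, 4 from genes that rose after Pam3CSK4 and, last, Ifit3 from a gene that did not. They are the 250 bases before a RefSeq start of each gene (GRCm38.p6, 5′ to 3′ on the gene's strand), in lower case with matches to the GAS motif TTCNNNGAA or the ISRE core (GAAA, then any 2 bases, then GAAA), on either strand, in capitals. Starts without a match in this window were passed over, and the first remaining by coordinate was taken. The Gbp5 window lies inside the span annotated for that gene, which begins at 142493978.
Irf1, chr11:53769764-53770013, + strand: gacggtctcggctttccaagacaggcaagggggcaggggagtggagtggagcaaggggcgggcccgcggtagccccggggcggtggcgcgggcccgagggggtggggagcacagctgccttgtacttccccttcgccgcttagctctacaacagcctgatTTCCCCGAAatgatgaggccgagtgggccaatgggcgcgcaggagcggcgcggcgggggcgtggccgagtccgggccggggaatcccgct
Gbp5, chr3:142496684-142496933, + strand: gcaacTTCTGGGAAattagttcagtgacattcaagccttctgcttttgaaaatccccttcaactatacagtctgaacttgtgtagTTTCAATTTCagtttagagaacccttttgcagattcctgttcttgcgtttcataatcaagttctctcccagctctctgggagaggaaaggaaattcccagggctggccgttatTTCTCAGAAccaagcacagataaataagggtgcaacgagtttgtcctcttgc
Socs1, chr16:10785537-10785786, - strand: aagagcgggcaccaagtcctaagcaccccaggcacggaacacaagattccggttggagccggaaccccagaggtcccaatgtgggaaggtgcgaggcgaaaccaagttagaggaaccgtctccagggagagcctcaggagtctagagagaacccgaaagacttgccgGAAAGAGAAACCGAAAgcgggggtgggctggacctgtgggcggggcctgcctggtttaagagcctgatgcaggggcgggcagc
Cxcl10, chr5:92348890-92349139, - strand: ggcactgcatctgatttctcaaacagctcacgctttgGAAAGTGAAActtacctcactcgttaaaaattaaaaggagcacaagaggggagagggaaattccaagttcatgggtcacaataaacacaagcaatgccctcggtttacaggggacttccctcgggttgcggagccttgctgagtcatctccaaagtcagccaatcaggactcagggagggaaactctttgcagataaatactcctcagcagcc
Ifit3, chr19:34583279-34583528, + strand: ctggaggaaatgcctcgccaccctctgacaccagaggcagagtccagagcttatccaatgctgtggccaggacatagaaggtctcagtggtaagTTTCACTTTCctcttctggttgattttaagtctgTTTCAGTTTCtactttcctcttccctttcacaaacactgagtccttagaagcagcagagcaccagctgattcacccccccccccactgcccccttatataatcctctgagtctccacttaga
Irf1 held a GAS match from 90 to 82 bases before the start. Gbp5 held GAS matches from 245 to 237 and from 52 to 44 bases and an ISRE match from 165 to 156 bases before it, and Socs1 held overlapping ISRE matches from 83 to 74 and from 77 to 68 bases. Cxcl10 held an ISRE match from 213 to 204 bases, and Ifit3 held ISRE matches from 156 to 147 and from 122 to 113 bases. Of 32851 RefSeq promoters, 7.02% hold a GAS match and 2.98% an ISRE match in this window of 250 bases. The windows shown were picked for holding a match, so these shares are no comparison for them. A match describes the letters and is no measured binding site. Only 77.7% of the tested genes had an entry in this table, under the 80% needed, so shares of promoters with a match were not compared between the responding and other genes.

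Guanylate-binding proteins and immunity-related GTPases, which attack the vacuoles of intracellular pathogens, rose as a whole list. All 19 tested members were higher after Pam3CSK4, with a median log2 change of 4.26 beside -0.001 over all tested genes, and all 19 were raised by IFN-gamma alone, with a median of 8.09. With 1 member at 0 counts in Pam3CSK4, and 1 in Control, set to its bound against 3 counts, these medians were 4.17 and 6.93. Without combined replicate 3 all 19 were called, and without Pam3CSK4 replicate 2, 18. Iigp1 stood at 1.19 and 1.77 FPKM in Pam3CSK4 and 401, 388 and 435 FPKM in combined libraries, a log2 change of 8.21 ± 0.40 (edgeR adjusted p = 3.02e-06). Gbp4 went from 0.448 and 0.347 FPKM to 62.7, 59.3 and 61.2 FPKM (7.37 ± 0.34), Gbp10 from 0.0258 and 0.106 FPKM to 4.84, 4.63 and 5.75 FPKM (6.38 ± 0.49) and Gbp2 from 15.3 and 14.5 FPKM to 711, 722 and 660.2 FPKM (5.66 ± 0.67). In each of these genes every combined library lay above both Pam3CSK4 libraries, as held for 18% of all tested genes.

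Gbp5, which assembles inflammasome complexes, went from 1.33 and 1.16 FPKM to 71.9, 70.8 and 62.3 FPKM (5.88 ± 0.19, edgeR adjusted p = 4.21e-07), a level near the 63.2, 77.8 and 79.8 FPKM of IFN-gamma alone, while Control stood at 0.0932, 0.107 and 0.140 FPKM. Tgtp2 went from 1.03 and 0.850 FPKM to 91.8, 82.8 and 82.1 FPKM (6.61 ± 0.15) and its near-identical neighbour Tgtp1 from 0.0574 and 0.0169 FPKM to 3.07, 3.27 and 10.5 FPKM (7.22 ± 0.85); reads shared by these paralogs, and by the Gbp family, could be split between them. Tgtp1 in combined replicate 3 lay over 3 times above the other combined libraries. The list's smallest change was Gvin1, a very large GTPase, at 1.8 ± 0.20 (edgeR adjusted p = 0.000490).

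Chemokines split into genes that rose and genes that fell. Of 19 tested, 7 rose and 3 fell (median 0.09), against 12 and 3 under IFN-gamma alone (median 2.20). Over all tested genes the shares were 6.06% and 3.04% after Pam3CSK4, and 20% and 21.6% under IFN-gamma alone. The 7 were the same in number without combined replicate 3, and the 3 that fell became 2 without combined replicate 3 and 1 without either Pam3CSK4 library. Cxcl9, which attracts T cells through CXCR3 (ENSMUSG00000029417, chromosome 5, 92321347 to 92328079, mm10), stood at 2.1 and 2.31 FPKM in Pam3CSK4 and 861, 864 and 838 FPKM in combined libraries. The gap was far beyond the spread of either group, at 8.71 ± 0.21 on the log2 scale (edgeR adjusted p = 3.59e-08). Cxcl10, another CXCR3 ligand, went from 47.2 and 42.2 FPKM to 572, 575 and 507 FPKM (3.73 ± 0.21, edgeR adjusted p = 7.53e-06). The combined libraries were above those of IFN-gamma alone (100.5, 73.2 and 107 FPKM), whereas for Cxcl9 they were below (1331, 1483 and 1564 FPKM).

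Ccl12, a monocyte attractant, went from 2.55 and 3.22 FPKM to 68.2, 80.2 and 106 FPKM (4.99 ± 0.33, edgeR adjusted p = 1.94e-05), highest in combined replicate 3. Ccl8 had no count in the Pam3CSK4 libraries and 144 in the combined ones, at least 29.0-fold higher against a floor of 3 counts over the group; it was not called without Pam3CSK4 replicate 1 (0.118) or 2 (0.108). Cxcl11, the third CXCR3 ligand, had 3 Pam3CSK4 and 230 combined counts, a ratio of 46.4 (95% counting interval 15.7 to 226.5). The other 2 chemokines that rose were the monocyte attractant gene Ccl2 (4.34 ± 0.70), not called without either Pam3CSK4 library, and the T cell attractant gene Ccl5 (1.84 ± 0.23).

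The 3 chemokines that fell were Ccl9, Ccl3 and Ccl6. Ccl9, a ligand of CCR1, went from 523 and 483 FPKM to 122, 108 and 104 FPKM (-2.07 ± 0.17, edgeR adjusted p = 7.19e-05), and stood at 31.0, 32.3 and 31.9 FPKM with IFN-gamma alone beside 21.4, 28.5 and 20.4 FPKM in Control. Ccl3, an inflammatory ligand of CCR1, fell from 5833 and 5591 FPKM to 2209, 2217 and 2167 FPKM (-1.27 ± 0.23, edgeR adjusted p = 0.00841), and was not called without either Pam3CSK4 library. Ccl6 fell by 1.06 (edgeR adjusted p = 0.0260) but was called in no fit that left out 1 of the 5 libraries, with adjusted p between 0.0571 and 0.198. Ccl22, a ligand of CCR4 raised from 0.239, 0.126 and 0.0670 FPKM to 11.7, 19.1 and 19.5 FPKM by IFN-gamma alone, did not pass the test after Pam3CSK4, with 3.06 and 1.34 FPKM in Pam3CSK4 and 1.29, 0.905 and 0.553 FPKM in combined libraries (-1.15 ± 0.48, edgeR adjusted p = 0.202).

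**Figure D3:**
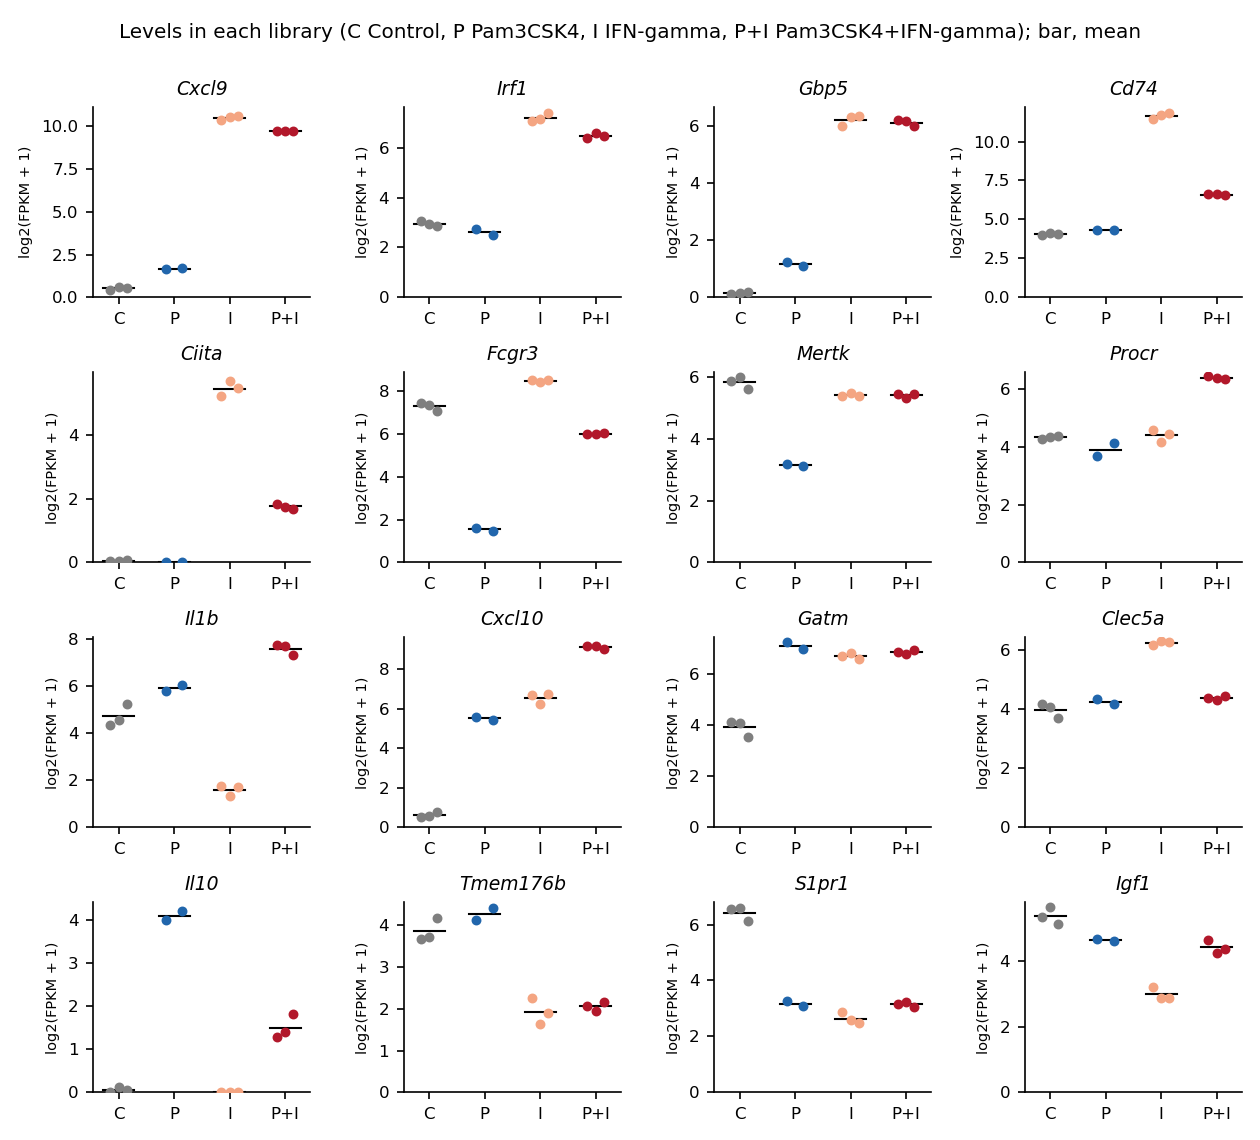
log2(FPKM + 1) of 16 genes (y axis) in every library of Control (C), Pam3CSK4 (P), IFN-gamma (I) and Pam3CSK4+IFN-gamma (P+I); points are libraries and bars are group means. Cxcl9 and Gbp5 in the combined libraries stand close to IFN-gamma alone, Cd74 and Ciita far below it, Il1b above all other groups, and Gatm and Clec5a at the Pam3CSK4 level.

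Antigen presentation by MHC class II, the route by which microglia present peptides to CD4 T cells, rose after Pam3CSK4 but to levels far below those of IFN-gamma alone. Of 15 tested members 9 rose and none fell (median log2 change 1.48), beside 6.06% and 3.04% of all tested genes. IFN-gamma alone raised 11 (median 2.69), beside 20% of all tested genes. All 9 were called without combined replicate 3 and 8 without Pam3CSK4 replicate 1. Ciita, the master transactivator of class II genes, had 1 count in the Pam3CSK4 libraries and 758 in the combined ones, a ratio of 458 (95% counting interval 82.0 to 18130). The combined libraries held 2.60, 2.37 and 2.23 FPKM of Ciita against 36.4, 50.9 and 43.8 FPKM with IFN-gamma alone. Cd74, the invariant chain, stood at 19.1 and 19.1 FPKM in Pam3CSK4, 96.5, 96.5 and 92.5 FPKM in combined and 2743, 3295 and 3583 FPKM in IFN-gamma libraries. Its change after Pam3CSK4 was 2.43 ± 0.15 (edgeR adjusted p = 1.22e-05), against 7.76 ± 0.16 without it, and the difference was -5.34 ± 0.19 (adjusted p = 2.34e-06).

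The class II chains showed the same order of levels. H2-Aa went from 1.13 and 0.729 FPKM to 19.4, 19.3 and 17.2 FPKM (4.42 ± 0.38, edgeR adjusted p = 9.95e-05) and H2-Eb1 from 2.12 and 1.85 FPKM to 44.6, 43.1 and 39.7 FPKM (4.52 ± 0.27, 1.15e-05), where IFN-gamma alone gave 572, 654 and 729 FPKM and 1107, 1309 and 1455 FPKM. H2-Ab1 went from 15.2 and 15.1 FPKM to 46.5, 47.0 and 44.5 FPKM (1.71 ± 0.18), beside 30.7, 33.4 and 25.9 FPKM in Control. H2-DMa, a peptide-loading chain, stood at 12.3 and 14.8 FPKM in Pam3CSK4 and 35.1, 33.3 and 36.9 FPKM in combined libraries, both below the 84.0, 88.4 and 54.6 FPKM of Control, and was not called without Pam3CSK4 replicate 1. The Rfx factors that bind class II promoters were not called: Rfx5 changed by 0.31 ± 0.11, Rfxap by -0.03 ± 0.12 and Rfxank by -0.17 ± 0.16.

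MHC class I presentation, which serves CD8 T cells, rose in 16 of 22 tested members with none lower (median 1.09), beside 6.06% and 3.04% of all tested genes. IFN-gamma alone raised all 22 (median 2.16), beside 20% of all tested genes. With Pam3CSK4 replicate 1, Pam3CSK4 replicate 2 or combined replicate 3 left out, 9, 10 and 15 were higher. Nlrc5, the class I transactivator, went from 5.06 and 4.79 FPKM to 22.1, 20.5 and 21.1 FPKM (2.22 ± 0.15, edgeR adjusted p = 1.94e-05), close to the 18.7, 23.6 and 20.8 FPKM of IFN-gamma alone. Tap1, the peptide transporter, went from 12.2 and 11.1 FPKM to 47.5, 46.1 and 48.5 FPKM (2.13 ± 0.21), and was at 45.0, 46.2 and 55.2 FPKM with IFN-gamma alone. Tapbpl, a peptide editor, went from 7.30 and 8.10 FPKM to 39.3, 36.9 and 35.8 FPKM (2.38 ± 0.20) and the nonclassical class I gene H2-T23 from 33.9 and 30.2 FPKM to 139, 144 and 135 FPKM (2.23 ± 0.24). B2m, the light chain of class I molecules, was not called (0.42 ± 0.23, edgeR adjusted p = 0.328).

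Among 14 tested costimulatory and checkpoint ligands, 4 rose and 2 fell (median -0.15), beside 6.06% and 3.04% of all tested genes. The 4 were called with any 1 of the 5 libraries left out. Cd40, a costimulatory receptor, went from 11.3 and 11.2 FPKM to 41.1, 40.5 and 34.2 FPKM (1.89 ± 0.19, edgeR adjusted p = 0.000288), above the 7.43, 6.90 and 9.44 FPKM of IFN-gamma alone. Cd86, the B7 ligand, went from 7.33 and 7.10 FPKM to 24.1, 24.2 and 20.9 FPKM (1.78 ± 0.18), below the 75.7, 83.5 and 79.1 FPKM of IFN-gamma alone. Cd274, which encodes PD-L1, went from 112 and 102 FPKM to 370.3, 354 and 325 FPKM (1.82 ± 0.19) and the adhesion ligand Icam1 from 53.3 and 56.5 FPKM to 169.6, 176 and 198 FPKM (1.83 ± 0.21). The 2 that fell, Vsir (-0.64 ± 0.17) and Havcr2 (-0.86 ± 0.21), encode the checkpoint proteins VISTA and TIM-3, and neither was called with any 1 of the 5 libraries left out; without Control replicate 3, 5 members were lower.

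Type I interferon-stimulated effectors, antiviral genes that respond to either interferon, were all raised by IFN-gamma alone (32 tested members, median 1.74). After Pam3CSK4, 6 rose and none fell (median 0.54), beside 6.06% higher and 3.04% lower of all tested genes. The count was 2 without Pam3CSK4 replicate 1 and 3 without each of Pam3CSK4 replicate 2, combined replicate 1 and combined replicate 3. It was 16 without Control replicate 3. Ifit3, an antiviral RNA-binding protein, stood at 68.7 and 79.0 FPKM in Pam3CSK4 and 64.0, 57.9 and 87.4 FPKM in combined libraries, which overlapped. Its change was 0.02 ± 0.34 (edgeR adjusted p = 0.983), with an interval from -0.74 to 0.79. Ifit3 and its paralog Ifit3b share sequence, and reads could be split between them.

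Zbp1, a nucleic-acid sensor that triggers cell death, was the list's largest rise, from 14.4 and 17.7 FPKM to 63.0, 62.9 and 64.2 FPKM (2.09 ± 0.22, edgeR adjusted p = 0.000318). Parp14, an ADP-ribosyltransferase, went from 26.1 and 28.3 FPKM to 54.7, 51.1 and 61.3 FPKM (1.14 ± 0.18, 0.00364). Ifit2 rose by 1.58 (edgeR adjusted p = 0.00489), but not past the threshold without Pam3CSK4 replicate 1 (0.0618). The others that rose were Oasl1, Isg15 and Herc6, none of which was called without Pam3CSK4 replicates 1 or 2 or combined replicates 1 or 3. Usp18, which removes ISG15 and restrains type I signalling, stood at 25 and 25 FPKM in Pam3CSK4 and 26.1, 27.0 and 33.3 FPKM in combined libraries (0.31 ± 0.25, edgeR adjusted p = 0.531, interval -0.24 to 0.87). Without Pam3CSK4 it went from 2.06, 3.06 and 1.67 FPKM to 16.1, 17.9 and 19.1 FPKM.

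**Figure D4:**
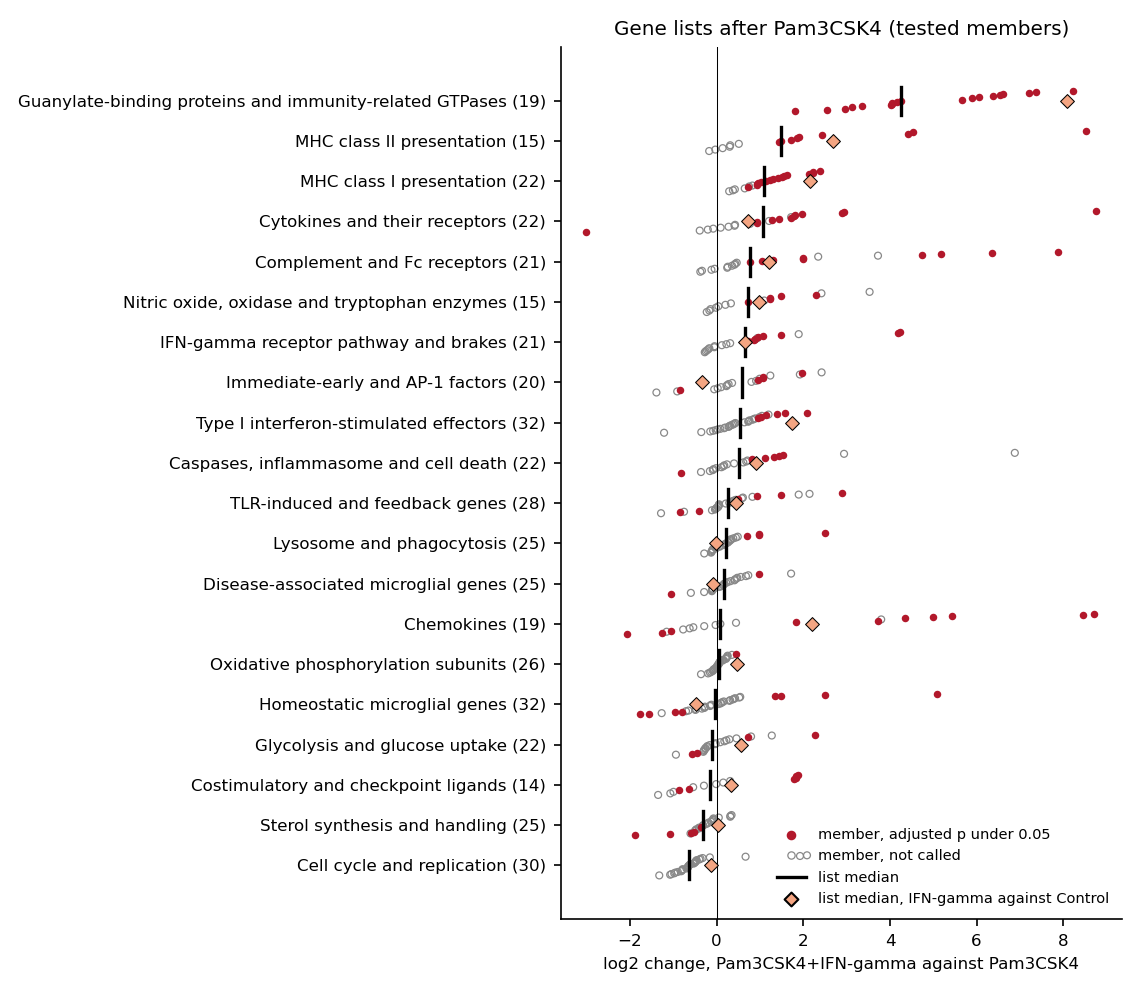
Tested members of 20 gene lists by their log2 change of Pam3CSK4+IFN-gamma against Pam3CSK4 (x axis); red points passed the threshold, open points did not, black bars are list medians and diamonds the list medians of IFN-gamma against Control. The 19 GTPases are all red, while 6 of 32 type I interferon-stimulated effectors are red, with a list median of 0.54 and a diamond at 1.74.

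The genes that IFN-gamma alone raised most and that did not respond after Pam3CSK4 fell into different patterns of level. In the first, Pam3CSK4 cells already stood near or above the level of IFN-gamma alone. Gatm, an enzyme of creatine synthesis (chromosome 2, 122594467 to 122611303, mm10), stood at 16.4, 16 and 10.6 FPKM in Control, 105, 112 and 96.9 FPKM in IFN-gamma, 152 and 124 FPKM in Pam3CSK4 and 116, 109.6 and 123 FPKM in combined libraries. The change after Pam3CSK4 was -0.14 ± 0.21 (edgeR adjusted p = 0.771, interval -0.62 to 0.34) against 2.95 ± 0.20 without it. Sema4a, a semaphorin that acts on T cells, stood at 35.9 and 43.1 FPKM in Pam3CSK4 and 31.4, 31.9 and 32.6 FPKM in combined libraries, above the 15.3, 15.3 and 17.4 FPKM of IFN-gamma alone (-0.20 ± 0.30, interval -0.88 to 0.49).

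Tnfsf13b, the B-cell survival factor BAFF, stood at 73.0 and 68.4 FPKM in Pam3CSK4, 63.8, 61.0 and 63.7 FPKM in combined and 61.4, 64.0 and 66.6 FPKM in IFN-gamma libraries, all above the 9.51, 12.3 and 10.6 FPKM of Control (-0.06 ± 0.12, interval -0.33 to 0.21). Phf11d stood at 12.1 and 10.5 FPKM and 12.7, 14.3 and 14.1 FPKM (0.38 ± 0.21, interval -0.09 to 0.86) and Aoah, an enzyme that deacylates endotoxin, at 201 and 207 FPKM and 234, 222 and 214 FPKM (0.24 ± 0.11, interval -0.01 to 0.49). Aoah stood far lower with IFN-gamma alone, at 12.6, 10.7 and 12.7 FPKM. Aoah and Phf11d were called higher in the fit of the 5 libraries alone (edgeR adjusted p = 0.0451 and 0.0364), with changes under 2-fold.

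In the second pattern, Pam3CSK4 cells stood near or below Control. Clec5a, a myeloid lectin receptor that signals through DAP12, stood at 17.0, 15.8 and 11.9 FPKM in Control and 69.8, 76.8 and 75.6 FPKM in IFN-gamma libraries. After Pam3CSK4 it stood at 19.0 and 16.9 FPKM without and 19.5, 18.8 and 20.8 FPKM with IFN-gamma (0.24 ± 0.18, edgeR adjusted p = 0.501, interval -0.16 to 0.65), so a response of the size seen alone (2.40 ± 0.17) lay outside the interval. Rspo1, a secreted enhancer of Wnt signalling, stood at 3.56, 2.83 and 2.21 FPKM in Control, 21, 22.5 and 21.6 FPKM in IFN-gamma, 1.25 and 0.734 FPKM in Pam3CSK4 and 1.00, 0.906 and 0.629 FPKM in combined libraries (-0.12 ± 0.31, interval -0.81 to 0.56). Lrrc16a, an actin capping regulator, stood at 2.1 and 2.17 FPKM and 2.69, 2.77 and 2.46 FPKM (0.41 ± 0.18); it was called, under 2-fold, in the fit of the 5 libraries (edgeR adjusted p = 0.0201).

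Some genes that IFN-gamma alone raised stood at a small share of that level in combined libraries. Sectm1a stood at 5.03, 5.87 and 5.21 FPKM with IFN-gamma alone and at 0.0170, 0.0169 and 0.0528 FPKM in combined libraries, where 5 counts in all gave a ratio of 3.02 to the 1 Pam3CSK4 count (95% counting interval 0.338 to 143); this difference did not pass the test (edgeR adjusted p = 0.552). Pdyn, the precursor of dynorphin peptides, held 20.5, 32.9 and 31.8 FPKM with IFN-gamma alone and 0.512, 0.570 and 0.738 FPKM in combined libraries, with 116 counts against 2 in Pam3CSK4 (ratio 35.1, 95% counting interval 9.49 to 293). Dnase1l3, a secreted nuclease, went from 0.156 and 0.208 FPKM to 1.86, 1.67 and 1.22 FPKM (3.23 ± 0.43, edgeR adjusted p = 0.00140), against 29.6, 33.3 and 36.3 FPKM with IFN-gamma alone.

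The called genes with the largest rises after Pam3CSK4 were the serine protease inhibitor genes Serpina3f and Serpina3g, which belong to a cluster of close paralogs. Serpina3g went from 0.0493 and 0.0580 FPKM to 25.6, 23.8 and 34.5 FPKM (9.08 ± 0.52, edgeR adjusted p = 8.02e-06). Serpina3f had 1 Pam3CSK4 count and 4544 combined counts, a ratio of 2748 (95% counting interval 493 to 108600.0). Il12rb1, a receptor chain for interleukins 12 and 23, had 1 Pam3CSK4 count and 894 combined counts, a ratio of 541 (95% counting interval 96.8 to 21380.0), and stood at 5.14, 5.58 and 4.81 FPKM against 23.1, 29.7 and 31.4 FPKM with IFN-gamma alone. The chloride channel gene Clic5 went from 0.0838 and 0.121 FPKM to 37.6, 38.8 and 36.3 FPKM (8.63 ± 0.40), above the 9.42, 7.26 and 6.20 FPKM of IFN-gamma alone, and the AP-1 family factor Batf2 from 0.0957 and 0.214 FPKM to 10.6, 10.9 and 9.88 FPKM (6.20 ± 0.34). In Batf2 the response did not differ past the threshold from that without Pam3CSK4 (difference -0.53 ± 0.42, adjusted p = 0.414).

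Cytokines and their receptors rose in 11 of 22 tested genes and fell in 1 (median 1.07), beside 6.06% and 3.04% of all tested genes. IFN-gamma alone raised 11 and lowered 3, beside 20% higher and 21.6% lower of all tested genes. Without combined replicate 3, 10 were higher and 1 lower; none was lower without either Pam3CSK4 library, and 2 were without Control replicate 3. Il1b, the inflammatory cytokine interleukin-1 beta (ENSMUSG00000027398, chromosome 2, 129364570 to 129371139, mm10), stood at 19.6, 22.7 and 36.7 FPKM in Control and 2.43, 1.55 and 2.25 FPKM with IFN-gamma alone. After Pam3CSK4 it went the other way, from 54.2 and 65.7 FPKM to 217, 212 and 160.2 FPKM. The change was 1.82 ± 0.26 (edgeR adjusted p = 0.00251) against -3.54 ± 0.25 without Pam3CSK4, and the difference was 5.36 ± 0.37 (adjusted p = 7.24e-05). Il1rn, the receptor antagonist that blocks interleukin-1, rose from 4.37 and 4.79 FPKM to 32.6, 31.8 and 30.1 FPKM (2.89 ± 0.24), about as much as without Pam3CSK4 (2.95 ± 0.21, difference -0.06 ± 0.28, adjusted p = 0.908). Il18bp, the soluble inhibitor of interleukin-18, went from 12.3 and 13.2 FPKM to 91.1, 88.0 and 95.1 FPKM (2.95 ± 0.20).

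The 1 cytokine that fell was Il10, the anti-inflammatory interleukin-10 (chromosome 1, 131019845 to 131024974, mm10), at 15.2 and 17.4 FPKM in Pam3CSK4 and 1.44, 1.65 and 2.54 FPKM in combined libraries. Both Pam3CSK4 values lay over 5 times above the highest combined one, and Control had at most 0.0965 FPKM. The log2 change was -3.01 ± 0.46 (edgeR adjusted p = 0.00695). It was 0.0651 without Pam3CSK4 replicate 2 and 0.0503 without replicate 1, both past the limit of 0.05, with values of -2.89 and -3.11; without combined replicate 3 the change was -3.28 and called. Tnf stood at 249.6 and 265 FPKM in Pam3CSK4 and 311, 313 and 330.0 FPKM in combined libraries (0.41 ± 0.28, edgeR adjusted p = 0.449). It had no overlap, as held for 18% of all tested genes in this direction, and was called higher in the fit of the 5 libraries (edgeR adjusted p = 0.00560). Il6 stood at 8.79 and 7.26 FPKM and 18.8, 19.0 and 13.8 FPKM (1.21 ± 1.44, edgeR adjusted p = 0.693; 0.00597 in the 5-library fit), with 0.488, 0.464 and 7.22 FPKM in Control. Il12b, the shared p40 chain of interleukins 12 and 23, was 261 and 108 FPKM and 227, 177 and 80.5 FPKM, which overlapped (-0.08 ± 0.76).

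Of 28 tested genes that TLR signals induce, 4 rose and 2 fell (median 0.25), beside 6.06% higher and 3.04% lower of all tested genes. IFN-gamma alone raised 12 and lowered 5, beside 20% higher and 21.6% lower of all tested genes. Without combined replicate 3 the counts after Pam3CSK4 were 5 and 1, without either Pam3CSK4 library 3 and 0, and without Control replicate 3 7 and 4. Acod1, which makes itaconate, went from 393 and 372 FPKM to 967, 1014 and 1015 FPKM (1.49 ± 0.13, edgeR adjusted p = 8.71e-05) and Tnfaip2 from 62.1 and 58.6 FPKM to 108, 109.6 and 103 FPKM (0.94 ± 0.14). The other 2 that rose were Il1rn and the cystine transporter gene Slc7a11 (0.49 ± 0.13), which was called in 3 of the 11 fits without 1 library. Tlr2, the receptor of the agonist itself, was lower, at 352 and 299 FPKM in Pam3CSK4 and 183, 179 and 145 FPKM in combined libraries (-0.84 ± 0.17, edgeR adjusted p = 0.0157), but not past the threshold without Pam3CSK4 replicate 1 (0.126) or 2 (0.0575). The other that fell was the NF-kB subunit gene Rel (-0.41 ± 0.11), called in 1 of the 11. Marco, a scavenger receptor, stood at 2106 and 2447 FPKM and 1848, 2146 and 2484 FPKM (0.03 ± 0.51, edgeR adjusted p = 0.984), against 3.11, 1.26 and 3.55 FPKM in Control.

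Nitric oxide, oxidase and tryptophan enzymes rose in 5 of 15 tested genes with none lower (median 0.72), also without combined replicate 3. Of all tested genes, 6.06% rose and 3.04% fell. Nos2, the inducible nitric oxide synthase, stood at 44.1 and 54.6 FPKM in Pam3CSK4 and 528, 504 and 557 FPKM in combined libraries, far above the 46.4, 37.9 and 38.8 FPKM of IFN-gamma alone. The groups did not overlap, as held for 18% of all tested genes in this direction. With all 11 libraries the change of 3.53 ± 1.20 was not called (edgeR adjusted p = 0.112). In Control it stood at 0.0635, 0.211 and 4.68 FPKM. The adjusted p was 5.45e-06 without Control replicate 3, 0.0414 without Control replicate 1 and 3.03e-05 in the fit of the 5 libraries alone. Slc7a2, which imports the arginine that Nos2 uses, went from 3.04 and 2.93 FPKM to 14.8, 13.9 and 12.2 FPKM (2.30 ± 0.13, edgeR adjusted p = 7.53e-06), above all libraries of the other groups, and Ass1, which regenerates arginine, from 21.4 and 24.3 FPKM to 44.7, 49.5 and 54.2 FPKM (1.22 ± 0.17). The others that rose were Acod1, the kynureninase gene Kynu (1.24 ± 0.26) and the superoxide dismutase gene Sod2 (0.72 ± 0.10). Kynu was not called without Pam3CSK4 replicate 2 (0.162) or combined replicates 1 (0.0552) or 2 (0.0644).

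Complement and Fc receptor genes rose in 9 of 21 tested members with none lower (median 0.77), beside 6.06% and 3.04% of all tested genes. They rose in 8 without combined replicate 3, and in fewer without either Pam3CSK4 library. Fcgr3, a low-affinity receptor for IgG (ENSMUSG00000059498, chromosome 1, 171051174 to 171064935, mm10), stood at 174, 162 and 135 FPKM in Control but 2.08 and 1.73 FPKM in Pam3CSK4 libraries. With IFN-gamma after Pam3CSK4 it stood at 64.0, 62.3 and 66.3 FPKM, still below every Control library. The change was 5.18 ± 0.20 (edgeR adjusted p = 9.44e-07) against 1.29 ± 0.14 without Pam3CSK4, and the difference was 3.89 ± 0.22 (adjusted p = 2.99e-05). Fcgr4, a receptor for IgG2 subclasses, went from 7.09 and 7.12 FPKM to 158, 167 and 203 FPKM (4.74 ± 0.26) after a start below every Control library (20.0, 11.7 and 14.3 FPKM), with a difference between responses of 0.06 ± 0.28 (adjusted p = 0.898).

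The complement component gene C4b went from 0.0174 and 0.0613 FPKM to 2.77, 2.70 and 3.46 FPKM (6.36 ± 0.60, edgeR adjusted p = 0.000186), below the 8.22, 9.46 and 8.09 FPKM of IFN-gamma alone. Factor B, encoded by Cfb, started high in Pam3CSK4 cells and went from 15.9 and 26.3 FPKM to 82.9, 73.5 and 79.9 FPKM (2.00 ± 0.38, edgeR adjusted p = 0.0109; 0.127 without Pam3CSK4 replicate 1). Serping1, the C1 inhibitor gene, had 1 Pam3CSK4 and 482 combined counts, a ratio of 291.5 (95% counting interval 52.1 to 11540.0); it was not called without Pam3CSK4 replicate 1 (0.171) or 2 (0.130).

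Of the 328 genes at least 2-fold higher after Pam3CSK4, 254 were also raised at least 2-fold by IFN-gamma alone. Of all tested genes, 6.68% were. Another 37 of the 328 changed less than 2-fold over the whole interval without Pam3CSK4. The share of all tested genes with such an interval was not counted, so the 37 are a description. Mertk, a phagocytic receptor for apoptotic cells (chromosome 2, 128698956 to 128802894, mm10), was one of the 37. It stood at 8.15 and 7.71 FPKM in Pam3CSK4 and 42.7, 39.5 and 42.7 FPKM in combined libraries. The change was 2.50 ± 0.17 (edgeR adjusted p = 1.96e-05) against -0.34 ± 0.13 without Pam3CSK4 (difference 2.84 ± 0.21, adjusted p = 9.44e-05). Control stood at 57.6, 63.6 and 48.2 FPKM and IFN-gamma alone at 40.6, 44.0 and 41.0 FPKM, so the combined libraries overlapped those of IFN-gamma alone. Procr, the endothelial protein C receptor, showed another order: 18.3, 19.2 and 20.0 FPKM in Control, 11.9 and 16.5 FPKM in Pam3CSK4, 22.9, 17.1 and 20.9 FPKM in IFN-gamma and 86.4, 83.7 and 81.9 FPKM in combined libraries. Every combined library was over 3 times above every other library, with a change of 2.67 ± 0.17 (edgeR adjusted p = 1.62e-05).

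Further genes at lower levels rose at least 2-fold after Pam3CSK4 and changed less than 2-fold over the whole interval without it. Egr2, an immediate-early factor, stood at 16.5, 20.6 and 13.1 FPKM in Control and went from 0.705 and 0.901 FPKM to 3.08, 2.55 and 3.19 FPKM (1.98 ± 0.27, edgeR adjusted p = 0.00154). Hspa4l, a chaperone of the HSP110 family, went from 2.13 and 1.76 FPKM to 6.85, 6.55 and 5.99 FPKM (1.84 ± 0.21), above every other library, and the ciliary planar polarity gene Intu from 0.643 and 0.679 FPKM to 2.44, 2.67 and 2.03 FPKM (1.95 ± 0.28), likewise above every other library. Pik3ip1, an inhibitor of PI3 kinase (2.37 ± 0.18; 0.57 ± 0.14 with IFN-gamma alone, which also passed the test), the secreted kinase gene Pkdcc (1.75 ± 0.21) and Stac2 (1.67 ± 0.34) stood lowest in the Pam3CSK4 libraries. Stac2 was not called without Pam3CSK4 replicate 2 (0.138).

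Reversals of direction were few: 3 of the 731 raised genes fell and 9 of the 698 lowered genes rose after Pam3CSK4. Of all tested genes, 3.04% fell and 6.06% rose. Without combined replicate 3, 2 of the 3 and 5 of the 9 stayed in their class. Shisa3, an inhibitor of Wnt and FGF receptors, went from 1.88 and 2.71 FPKM to 0.308, 0.333 and 0.253 FPKM (-2.83 ± 0.38, edgeR adjusted p = 0.00162) but had risen by 2.13 with IFN-gamma alone, at levels under 0.2 FPKM. F2rl2, a protease-activated receptor, fell by 2.04 and had risen by 3.67 without Pam3CSK4; its call was lost without Pam3CSK4 replicates 1 or 2 (0.146 and 0.118) and without combined replicates 1 or 2 (0.108 and 0.112). Gab1, a docking protein of receptor kinases, rose from 0.270 and 0.318 FPKM to 1.17, 0.820 and 1.14 FPKM (1.93 ± 0.26) and fell from 4.52, 4.98 and 4.92 FPKM to 1.86, 1.07 and 1.24 FPKM without Pam3CSK4. The combined and IFN-gamma libraries of Gab1 overlapped.

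Of the 32 tested homeostatic microglial genes, which mark the resting state, 4 rose and 4 fell (median -0.04). IFN-gamma alone raised 3 and lowered 13 (median -0.47). Of all tested genes, 6.06% rose and 3.04% fell after Pam3CSK4, and 20% and 21.6% did with IFN-gamma alone, so the call rates differ. The genes that rose were called without combined replicate 3 as well, and the 4 that fell became 2 without it, without combined replicate 1 and without either Pam3CSK4 library. Without Control replicate 3, 7 rose and 7 fell. Entpd1, the ectonucleotidase CD39, went from 0.667 and 0.453 FPKM to 18.8, 17.7 and 16.6 FPKM (5.08 ± 0.32, edgeR adjusted p = 1.49e-05). This was above the 13.4, 15.8 and 10.2 FPKM of Control and far below the 75.55, 107.3 and 77.26 FPKM of IFN-gamma alone. The other 3 that rose were Mertk, Irf8 and the purinergic receptor gene P2ry13 (1.35 ± 0.25), the last not called without either Pam3CSK4 library. Tmem119, a microglial surface marker, fell from 53.1 and 61.7 FPKM to 16, 13.9 and 17.2 FPKM (-1.76 ± 0.28, edgeR adjusted p = 0.00439), near the 23.6, 14.2 and 14.8 FPKM of IFN-gamma alone and far below the 131, 111 and 74.3 FPKM of Control. The others that fell were Ltc4s (-1.57 ± 0.36), Fcrls (-0.96 ± 0.15) and the fractalkine receptor gene Cx3cr1 (-0.80 ± 0.19). Ltc4s was not called without either Pam3CSK4 library or combined replicates 1 or 3, and Cx3cr1 with any 1 of the 5 left out. P2ry12, another purinergic receptor, was low with and without IFN-gamma after Pam3CSK4, at 1.70 and 1.32 FPKM and 2.05, 1.85 and 2.14 FPKM (0.52 ± 0.41, edgeR adjusted p = 0.525; 0.0403 in the 5-library fit).

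The largest falls included receptors that guide migration. Cxcr4, the receptor of CXCL12 (chromosome 1, 128588199 to 128592293, mm10), went from 7.13 and 7.89 FPKM to 1.17, 1.31 and 1.19 FPKM (-2.51 ± 0.28, edgeR adjusted p = 0.000466) and Gpr183, an oxysterol receptor, from 6.56 and 5.62 FPKM to 1.42, 1.10 and 0.609 FPKM (-2.43 ± 0.32). IFN-gamma alone changed them by -4.21 and -3.52. Tmem176b, a cation channel of myeloid cells, went from 16.5 and 20.3 FPKM to 3.19, 2.87 and 3.46 FPKM (-2.43 ± 0.21, edgeR adjusted p = 9.42e-05), with the combined libraries within the range of IFN-gamma alone (3.78, 2.12 and 2.76 FPKM). Abcb4, a phospholipid transporter, fell from 9.73 and 11.0 FPKM to 1.78, 1.77 and 2.19 FPKM (-2.33 ± 0.24).

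Other large falls were in genes with differing Control levels. Spib, an ETS-family factor, stood at 16.7 and 12.9 FPKM in Pam3CSK4 and 3.26, 2.1 and 1.26 FPKM in combined libraries (-2.64 ± 0.48, edgeR adjusted p = 0.00836), and at most 0.034 FPKM in Control. Its call was lost without Pam3CSK4 replicates 1 (0.110) or 2 (0.0587). Mfsd7c, a heme and choline transporter, went from 17.7 and 13 FPKM to 3.33, 3.08 and 2.22 FPKM (-2.30 ± 0.39; adjusted p = 0.107 without Pam3CSK4 replicate 1). Fah, the last enzyme of tyrosine breakdown (-3.03 ± 0.72), and the calcium-binding gene S100a4 (-2.51 ± 0.62, 17.5, 7.12 and 8.97 FPKM in Control) were called in no fit that left out 1 of the 5 libraries (edgeR adjusted p from 0.0869 to 0.159 and from 0.0809 to 0.210).

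Genes that IFN-gamma alone lowered and that did not respond after Pam3CSK4 showed contrasting levels. S1pr1, a receptor that controls lymphoid egress (chromosome 3, 115710433 to 115715072, mm10), stood at 92.3, 94.8 and 68.0 FPKM in Control and was low in all treated groups, with 8.60 and 7.46 FPKM in Pam3CSK4, 8.04, 8.35 and 7.31 FPKM in combined and 6.31, 4.95 and 4.52 FPKM in IFN-gamma libraries. Its change after Pam3CSK4 was 0.09 ± 0.20 (edgeR adjusted p = 0.858, interval -0.37 to 0.54). Sgk1, a kinase of the stress response, and Pxdc1 likewise stood below Control in every treated library (0.22 ± 0.19 and 0.07 ± 0.27). Igf1, a growth factor of microglia, was also below its Control level (40.0, 49.5 and 34.2 FPKM) in every treated library, with 24.8 and 23.4 FPKM in Pam3CSK4, 24.1, 18.1 and 20.0 FPKM in combined and 8.33, 6.32 and 6.34 FPKM in IFN-gamma libraries (-0.11 ± 0.20, interval -0.57 to 0.35). Cd5, a scavenger-family receptor, stood at 11.0, 13.1 and 9.15 FPKM in Control, 83.2 and 64.3 FPKM in Pam3CSK4 and 83.1, 75.2 and 48.3 FPKM in combined libraries, lowest in replicate 3 (0.01 ± 0.27, interval -0.59 to 0.61). Htr2b, a serotonin receptor, stood at 3.00 and 3.73 FPKM and 2.97, 1.97 and 2.67 FPKM (-0.30 ± 0.23, interval -0.81 to 0.21).

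Metabolic genes were read beside all tested genes, of which 6.06% were higher and 3.04% lower after Pam3CSK4 and 20% higher and 21.6% lower with IFN-gamma alone. Of 22 tested glycolysis genes 2 rose and 2 fell (median -0.10), against 15 and 1 under IFN-gamma alone (median 0.57), and of 26 oxidative phosphorylation subunits 1 rose (median 0.05), against 19 under IFN-gamma alone (median 0.48). Hk3, a myeloid hexokinase, went from 51.8 and 56.1 FPKM to 238, 236 and 255 FPKM (2.28 ± 0.19, edgeR adjusted p = 7.98e-05), within the range of IFN-gamma alone (225, 254 and 256 FPKM). The other that rose was Hif1a (0.72 ± 0.15), and those that fell were the lactate exporter gene Slc16a3 (-0.57 ± 0.10) and Eno1 (-0.44 ± 0.11). Without Control replicate 3 the glycolysis counts were 4 and 6. Hif1a and Slc16a3 were not called without Pam3CSK4 replicate 2 (0.160 and 0.0998), and Hif1a also not without Pam3CSK4 replicate 1 or combined replicates 1 or 2 (0.0723, 0.0615 and 0.0632). Eno1 and the 1 subunit gene, Ndufs3 (0.44 ± 0.10), were called in no fit that left out 1 of the 5 libraries (edgeR adjusted p from 0.0526 to 0.282 and from 0.0608 to 0.186).

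In sterol synthesis and handling, 5 of 25 tested genes were lower and none higher (median -0.31), beside 3.04% lower and 6.06% higher of all tested genes. IFN-gamma alone raised 7 and lowered 5, beside 20% higher and 21.6% lower of all tested genes. Without combined replicate 3, 4 were lower, without Pam3CSK4 replicates 1 and 2, 3 and 2, without combined replicates 1 and 2, 3 and 2, and without Control replicate 3, 9. Idi1, an isoprenoid isomerase, went from 2.65 and 2.87 FPKM to 1.03, 1.23 and 1.41 FPKM (-1.07 ± 0.17, edgeR adjusted p = 0.00367). Other genes that fell were Sc5d (-0.59 ± 0.11), Fdps (-0.53 ± 0.12) and the regulator gene Srebf2 (-0.35 ± 0.09), each under 2-fold and each lost without Pam3CSK4 replicate 2 and combined replicate 2.

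The lists in this paragraph were read beside all tested genes, of which 6.06% were higher and 3.04% lower after Pam3CSK4. Counts such as 1 each way among 25 lie near those shares. None of 30 tested cell cycle and replication genes was called (median -0.63), beside 2 lower without combined replicate 3 and 3 higher and 6 lower without Control replicate 3. Among 22 tested genes of caspases, inflammasomes and cell death, 6 were higher and 1 was lower (median 0.51). Casp4, the sensor of cytosolic endotoxin, went from 10.3 and 9.44 FPKM to 20.9, 19.5 and 18.8 FPKM (1.11 ± 0.11, edgeR adjusted p = 0.000263) and the sensor gene Nlrp1b from 1.33 and 1.04 FPKM to 3.33, 2.82 and 3.49 FPKM (1.54 ± 0.17). Of 25 lysosome and phagocytosis genes 4 rose (median 0.22), namely Mertk, Cd36, Ctsh and Ctsc; all but Mertk lost their call without Pam3CSK4 replicate 1 or 2, leaving 1, and 10 were higher without Control replicate 3. Disease-associated microglial genes, a signature of neurodegeneration models, showed 1 rise, Lgals3 (0.99 ± 0.22), and 1 fall, Ccl6, among 25 (median 0.18), and neither was called without Pam3CSK4 replicates 1 or 2 or combined replicates 1 or 2; without Control replicate 3, 5 rose. Of 20 immediate-early factors 4 rose, Egr2, Egr1, Jun and Klf6, and Fos fell (-0.84 ± 0.17); Klf6 went from 21.1 and 18.4 FPKM to 36.0, 34.1 and 36.4 FPKM (0.95 ± 0.09). Egr1 and Jun lost their call without Pam3CSK4 replicates 1 or 2, Jun also without any 1 combined library, and Fos without Pam3CSK4 replicate 2 or combined replicate 1.

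Leaving out combined replicate 3 moved few of the called differences in size. The 995 called genes all kept their sign, which their lack of overlap made nearly certain. The median absolute shift of their log2 change was 0.035, the largest was 0.934, and 5 moved by more than 0.5. Of the 663 higher and 332 lower genes, 499 and 175 stayed called. Dropping combined replicate 1 kept 446 and 157, and dropping replicate 2 kept 443 and 145. Large changes that were not called behaved otherwise: 180 genes had a log2 change above 2 without passing the threshold, and combined replicate 3 held the highest of the 5 values in 160 of them. Their median fell from 3.94 to 0.735 without that library, 66 stayed above 2, and none was called in either fit. Among the 136 genes called with a change above 2, the median was 3.5 with and 3.52 without it, and 133 stayed called. Control replicate 3 held the highest of all 11 values in 128 of the 180 genes and in 2 of the 136. Of the 133 genes that the naming rule picked, 11 lost their call without combined replicate 3, among them Ccl6, Cd36, Eno1, Fah, Jun, Ltc4s, Ndufs3, Oasl1, S100a4 and Stat3. In bulk RNA, fewer cells of a type and less RNA per cell cannot be told apart.

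**Figure D5:**
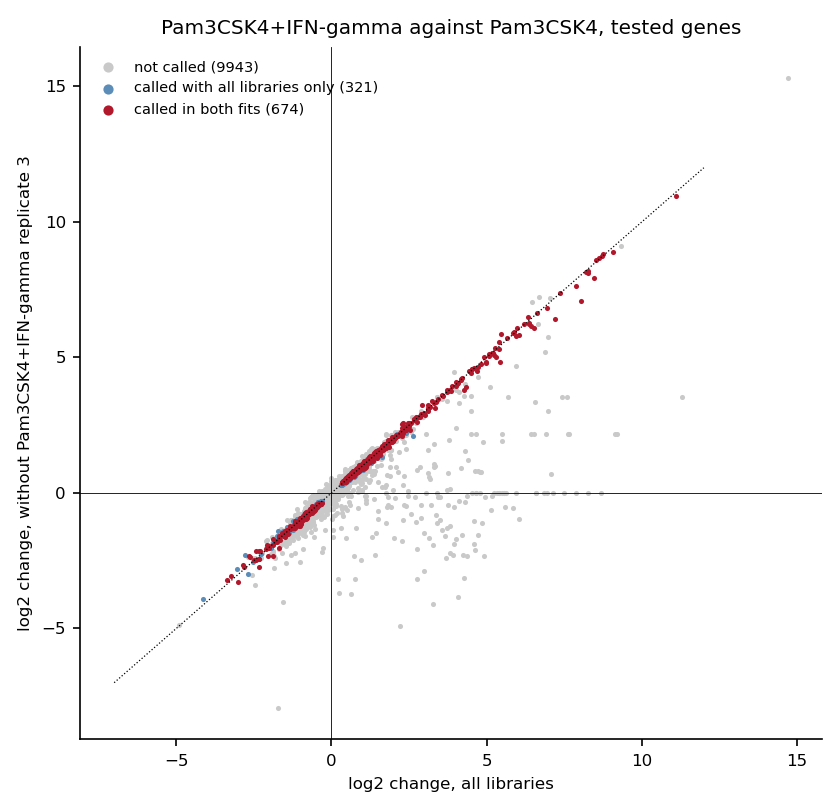
log2 change of Pam3CSK4+IFN-gamma against Pam3CSK4 for each tested gene with all libraries (x axis) and without combined replicate 3 (y axis); the dotted line marks equal change. The 995 called genes (red and blue) lie along the line, and the points far below it on the right are genes that were not called.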

How the data were processed

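RNA was measured by bulk RNA-seq in 11 libraries of 4 groups. The authors deposited 1 table of 34745 genes with a raw count and an FPKM value per library, per the file headers. TopHat2 2.1.0, Cufflinks 2.1.1, Cuffdiff and mm10 are named in the submitters' processing notes without a role; the sources used here give neither the counting tool nor its annotation, strand or handling of multimapping reads, so near-identical, overlapping and antisense genes are uncertain. Genes with at least 1 FPKM in at least 2 libraries (10938) were tested on the deposited counts with edgeR 4.0.16 in R 4.3.3 (TMM, quasi-likelihood F test, two-sided, Benjamini-Hochberg adjustment over all tested genes) in 1 fit of all 11 libraries, which was tested on simulated data; values after ± are SE. IFN-gamma-responsive genes passed adjusted p 0.05 and 2-fold in IFN-gamma against Control. Ratios with 1 to 3 counts carry exact counting intervals, which cover counting error only. Totals of 15033702 to 20321017 counts set the precision.

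The members and the 20 gene lists were chosen with earlier results of these data known. A rule named 133 genes: the 12 largest rises and 10 largest falls with at least 5 FPKM and no overlap; the largest 10 raised and 6 lowered genes without a response; 6 with opposite directions; 8 at least 2-fold higher whose interval without Pam3CSK4 lay inside 2-fold; 8 interactions each way; up to 4 genes per list; and a panel of 23. Other list members named beside small counts were chosen after their values were seen. Alternatives were DESeq2 1.42.0, RLE scaling, other filters, a replicate block, fewer libraries and each library left out. Some of these genes are not reported here.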

Additional observations from a re-analysis of the deposited data

Results flagged for a closer look

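The response to IFN-gamma after Pam3CSK4 differed from that without it, by the interaction term of the edgeR fit (adjusted p under 0.05), in 876 genes toward a more positive and 876 genes toward a more negative change. In sum 16% of tested genes passed.

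Large positive differences among the genes that the naming rule picked are given on the log2 scale. The difference was 5.36 for Il1b, 4.02 for S1pr1 and 3.89 for Fcgr3, whose levels are given above. Hes1, a Notch target, had 4.09 (adjusted p = 0.00470) and rose after Pam3CSK4 from 0.229 and 0.293 FPKM to 1.51, 1.48 and 1.97 FPKM (2.76 ± 0.53), where IFN-gamma alone went from 5.44, 3.82 and 9.45 FPKM to 3.94, 1.42 and 1.5 FPKM; this rise was not called without Pam3CSK4 replicates 1 (0.120) or 2 (0.0838). Baiap2l2 had 4.66 (0.00420) and Sox4, a developmental transcription factor, 4.01 (0.00650); Baiap2l2 fell in both settings, and Sox4 stood at 1.63 and 1.27 FPKM in Pam3CSK4 and 1.28, 1.13 and 1.79 FPKM in combined libraries. A second table entry under the symbol Itgam, which overlaps the gene of that name, had 5.55 (0.0276), but its combined libraries ran over 2.61, 27.1 and 48.5 FPKM and the call was lost without Pam3CSK4 replicates 1 or 2 or combined replicates 2 or 3.

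The interaction term subtracts the response to IFN-gamma alone, so a large rise there favours a negative difference. The largest negative differences among the named genes were in genes that IFN-gamma alone raised. They included -9.77 for Sectm1a, -8.11 for Ccl22, -6.73 for Dnase1l3, -6.01 for Pdyn, -5.83 for Cfb, -5.55 for H2-Eb1 and -5.34 for Cd74. Ifi205, an interferon-inducible gene of a family of close paralogs, had -7.87 (1.32e-05), with 2.23 and 2.82 FPKM in Pam3CSK4, 7.42, 7.37 and 7.95 in combined and 21.8, 26.0 and 25.2 in IFN-gamma libraries. Sectm1a and Pdyn had at most 2 counts in all in Control and in Pam3CSK4 each, so their fitted differences depend on the prior count and are no bounds. The call for Sectm1a was lost without Pam3CSK4 replicate 2, and that for Pdyn without Control replicates 1, 2 or 3, IFN-gamma replicate 3, Pam3CSK4 replicate 1 or combined replicates 1, 2 or 3.

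The mitochondrial gene mt-Co1 had a count of 314863 in combined replicate 2, 1.55% of that library, and 0 in the other 10 libraries. It did not enter the tests.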

How the results depend on the processing

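The sizes of the counts depended on the libraries, filter and tool of the fit. Unless a construction such as fewer libraries shows it, the cause was not tested. The even split of the interaction, 876 positive and 876 negative, was 1188 and 1278 with DESeq2 and 832 and 703 with a minimum of 5 FPKM. Genes higher in the combined group than in Pam3CSK4 (663) numbered 1345 with only the 5 compared libraries, 1200 without the 3 libraries high in mural markers, 328 at 2-fold or more, and 302 to 1185 with 1 library left out; genes lower (332) numbered 969, 922, 104 and 103 to 820, and 600 with DESeq2 and 193 with no filter on low values. Genes raised by IFN-gamma alone and higher again (357) ran from 213 to 497 with 1 library left out, and those with a response under 2-fold (176) numbered 115 with a minimum of 5 FPKM and 138 to 200 with 1 library left out. Genes lowered and lower again (97) numbered 155 with DESeq2, 242 without the 3 libraries, 54 at 2-fold or more and 36 to 198 with 1 library left out, and those lowered with a response under 2-fold (299) ran from 225 to 350. Positive interactions (876) numbered 441 with no filter, 1601 without the 3 libraries, 451 at 2-fold or more and 307 to 1656 with 1 library left out; negative ones (876) numbered 639, 1499, 335 and 357 to 1576. Replicate numbers were not taken to pair the samples: deviations of the first Pam3CSK4 and combined replicates correlated at 0.265 and of the second at -0.122, while same-numbered Control and combined libraries correlated at 0.468, 0.44 and 0.715 and Control and IFN-gamma libraries at -0.719, 0.667 and -0.688. With the replicate number as a block, 528 genes were higher and 196 lower, the interaction gave 698 and 646, and 13 of the 133 named genes lost their call. Of those 133, 28 lost it without each Pam3CSK4 library in turn and 11 to 17 without each combined library. With 2 Pam3CSK4 libraries, a lone library is assumed to vary like the others when 1 is left out.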
